A study of Arabidopsis thaliana with 18 samples.

Results

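Polysomal and monosomal RNA of Arabidopsis thaliana seedlings were compared on the 6 arrays whose titles name these fractions, 3 polysomal and 3 monosomal, out of 18 arrays in the series. All plants were of the accession Col-0 (Columbia-0), and the seedlings were taken 72 h after imbibition, the uptake of water that starts germination. The other 12 arrays hold total RNA of the same seedlings and total, monosomal and polysomal RNA of freshly harvested dry seeds, with 3 arrays in each group. The labels describe a randomized block layout with 3 biological replicates, each made from 8 plants in bulk, and no mutant, transgene or other treatment. All 27827 rows of the value table, 1 per gene locus, entered the comparison, and 26486 of them are protein-coding genes in the RefSeq table.

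During translation several ribosomes can follow each other along an mRNA, and such polysomes sediment further in a sucrose gradient than single ribosomes, the monosomes. An mRNA that initiates often, or that offers a long reading frame, tends to carry many ribosomes, while a short reading frame has room for few. Monosomes hold translated and stalled mRNAs as well as single ribosomes that are not translating. The polysomal to monosomal difference is therefore used as a readout of how heavily an mRNA is loaded. Here each fraction was hybridised to arrays of its own, so a value reflects the share that a transcript takes of its fraction. The amount of RNA in either fraction was not measured. Gene length and sequences were not used here.

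Values below are log2 intensities as deposited, and a difference is polysomal minus monosomal on the log2 scale, with its standard error (SE). A gene is called when its p from limma, adjusted over all 27827 genes by the Benjamini-Hochberg method, is under 0.05. Values of the 3 polysomal and the 3 monosomal arrays are given in the order of replicates 1, 2 and 3.

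The arrays carried seedling transcripts, with differing additions of seed transcripts. Light-harvesting genes, which bind chlorophyll in the photosystems, had a median over 18 genes of 9.78, 9.56 and 9.81 on the polysomal arrays. The monosomal medians were 9.57, 9.62 and 9.41. Of 40 genes for storage proteins, oil body proteins and late embryogenesis abundant (LEA) proteins, all typical of seeds, polysomal replicate 3 held the highest value of the 6 arrays in 31. Among the monosomal arrays, replicate 1 was highest in 26 of the 40, and replicates 2 and 3 in 7 each. In bulk RNA, fewer cells of a type and less RNA per cell cannot be told apart.

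**Figure D1:**
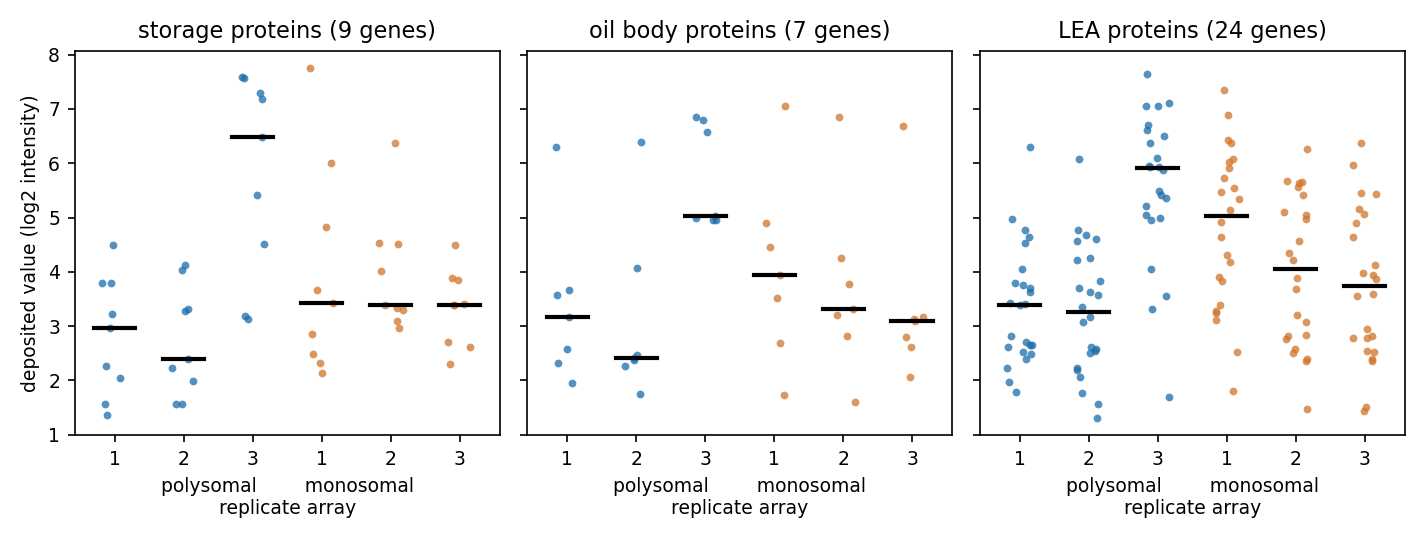
Deposited log2 intensity of each storage protein, oil body and LEA gene on the 3 polysomal (blue) and 3 monosomal (orange) seedling arrays. Points are genes and black bars are list medians; the median of polysomal replicate 3 is the highest in all 3 lists.

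The gene CRU3, which encodes a cruciferin storage protein, had values of 3.79, 3.32 and 7.29 on the polysomal and 6.0, 4.53 and 4.50 on the monosomal arrays. Polysomal replicate 3 lay above all monosomal values and the other polysomal arrays below them, and the difference was −0.21 (SE 0.63, adjusted p = 0.842). Without that array the difference was −1.45 (adjusted p = 0.00566), and with monosomal replicate 1 left out as well it was −0.96 (adjusted p = 0.00573). CRA1, a further cruciferin gene, had 4.49, 4.13 and 7.57 against 7.75, 6.38 and 3.85, and its difference of −1.68 without polysomal replicate 3 did not pass (adjusted p = 0.0791). Thus in CRA1 the 2 lowest polysomal values still overlapped with the lowest monosomal value.

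LEA proteins protect cells during drying. With all arrays, 1 of 24 LEA genes was called higher and 1 lower on polysomes, where 10.9% of all genes were called higher and 8.17% lower. The lower gene was AT3G02480, with 3.70, 4.21 and 5.21 on the polysomal and 6.02, 5.65 and 5.97 on the monosomal arrays (difference −1.51, SE 0.30, adjusted p = 0.00216). Its groups did not overlap, although polysomal replicate 3 was again the highest of its group. The higher gene was M10, with 3.42, 3.71 and 6.10 against 3.12, 3.68 and 2.35, and this call was lost without polysomal replicate 3 (difference 0.51, adjusted p = 0.232).

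Without polysomal replicate 3, 9 LEA genes, 4 of 9 storage protein genes and 1 of 7 oil body genes were called lower on polysomes and 0 higher, against 5.97% of all genes called lower and 9.05% higher in the same fit. With monosomal replicate 1 left out too, the counts were 7, 5 and 1. An example is the LEA gene LEA (AT2G21490), at 3.75, 3.35 and 5.88 against 5.34, 5.04 and 4.64, with a difference of −0.68 over all arrays (adjusted p = 0.244). It was −1.45 without polysomal replicate 3 (adjusted p = 0.000532) and −1.29 without both arrays (adjusted p = 0.00162). Polysomal replicate 3 was singled out by these same genes, so the values without it are a description and no independent support. The part of the seed transcripts of single arrays in the other results was not tested.

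Over all genes, 3047 transcripts were higher on polysomes and 2274 lower, and 1195 and 685 of these differed by at least 2-fold. Without polysomal replicate 3, 2517 were higher and 1662 lower. Of the genes called with all arrays, 2308 of those higher (75.7%) and 1448 of those lower (63.7%) were called in the same direction without it. Without both arrays that carried more seed transcripts the counts were 2423 and 1693. The 3 polysomal values lay wholly above the 3 monosomal values in 16.5% of all genes and wholly below them in 18.6%. A gap between the groups of a single gene was thus common.

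Correlation across genes, which are not independent replicates, was 0.972 to 0.980 among polysomal arrays, 0.957 to 0.963 among monosomal arrays and 0.937 to 0.950 between the fractions. Polysomal arrays had a wider spread of values. Their 25th percentile was 1.97 to 2.0 against 2.22 to 2.34 for monosomal arrays, and their 75th percentile 5.38 to 5.42 against 5.10 to 5.25. The deposited difference also varied with the level of the gene. Among the 11732 genes with a mean below log2 3 over the 18 arrays, the median difference was −0.28, with 1.76% called higher and 8.16% lower. Among the 16095 genes from log2 3 upwards it was 0.14, with 17.7% called higher and 8.18% lower.

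When all arrays were given the same distribution by quantile normalization, 1998 of the latter genes were called higher and 1729 lower. Loess scaling between arrays gave 1705 and 1915. Over all genes the split of higher to lower calls was 3047 to 2274 as deposited, 2213 to 1937 after quantile normalization, 2049 to 2143 after loess, 2564 to 2872 with arrays centred on their medians and 1907 to 5289 with arrays centred on their 75th percentiles. The median difference of all genes moved from −0.10 as deposited to −0.01 after quantile normalization or loess, −0.16 after median centring and −0.31 after centring on the 75th percentile. The split between higher and lower calls thus moved with the scaling.

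**Figure D2:**
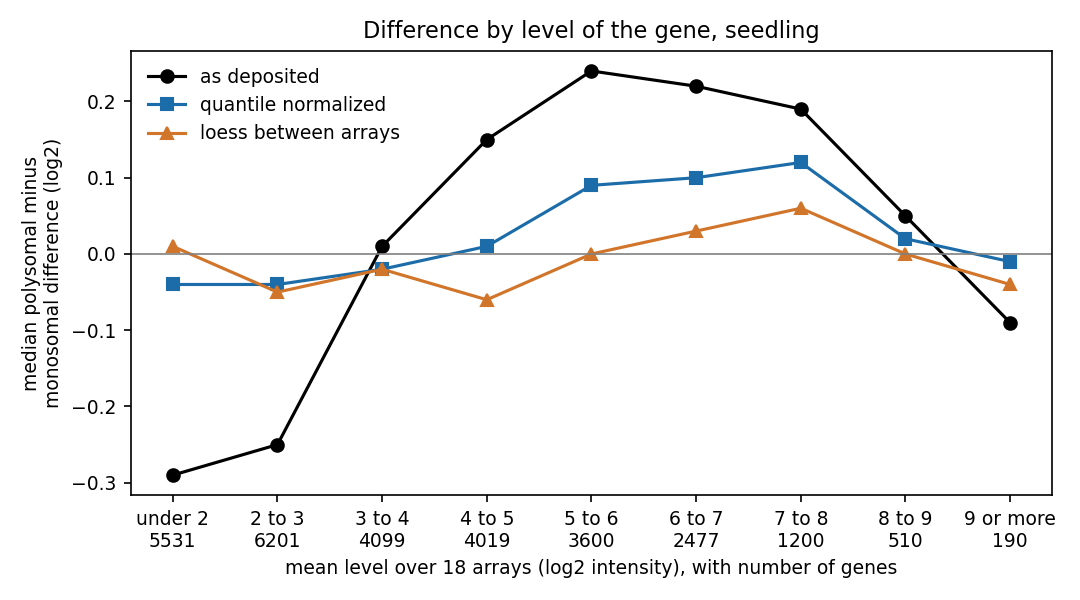
Median polysomal minus monosomal difference (log2) of all genes, in classes of their mean level over 18 arrays (log2 intensity, with the number of genes), under the deposited scaling, quantile normalization and loess. The deposited medians run from −0.29 below log2 2 to 0.24 between 5 and 6 and −0.09 from 9 upwards, while the other scalings stay between −0.06 and 0.12.

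Large differences were found in single genes in both directions. The locus AT4G05631, to which the RefSeq table gives no symbol, had 7.63, 7.36 and 7.65 on the polysomal arrays and 4.79, 4.75 and 3.89 on the monosomal arrays. The groups lay well apart, by 3.07 (8.39-fold, SE 0.26, adjusted p = 3.37e-06), and the total RNA mean of 7.67 lay with the polysomal values. SYP111 (AT1G08560), the syntaxin KNOLLE that fuses vesicles at the cell plate of dividing cells, had 6.87, 7.08 and 6.79 against 4.27, 4.99 and 4.79. It was 4.69-fold higher on polysomes (difference 2.23, SE 0.23, adjusted p = 1.78e-05), and 2.29 without polysomal replicate 3. CHUP1 (AT3G25690), an actin-binding protein that positions chloroplasts, had 6.42, 6.03 and 5.93 against 3.66, 4.93 and 3.18. Its monosomal values were spread (SD 0.90) but stayed below the lowest polysomal value (difference 2.21, SE 0.37, adjusted p = 0.000601).

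SAP130b (AT3G55220), a subunit of a splicing complex, was at 6.06, 5.86 and 6.27 against 5.26, 4.36 and 2.59. The monosomal arrays differed by more among themselves than the mean difference of 1.99 (SE 0.48, adjusted p = 0.0072), and when only the 6 arrays were fitted the call was lost (adjusted p = 0.0560). The other loci among the 10 largest higher calls were AT5G45170, AT1G56700, AT3G14330, AT3G04760, AT3G25480 and AT5G41109, with differences from 1.95 for AT5G41109 to 2.17 for AT5G45170. AT1G56700 had the tightest polysomal values of these, 8.10, 8.24 and 8.18, against 5.71, 6.49 and 5.81.

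In the other direction AT3G50250, a protein-coding locus without a symbol, had 3.71, 2.97 and 4.45 on polysomal and 5.73, 7.65 and 7.59 on monosomal arrays. The difference was −3.28, which is 9.71-fold lower on polysomes (SE 0.43, adjusted p = 0.000106), and the total RNA mean of 9.82 lay above both fractions. EXT6 (AT2G24980), an extensin of the cell wall, had 5.17, 5.51 and 5.70 against 7.26, 8.09 and 8.01. It was 5.01-fold lower on polysomes (difference −2.33, SE 0.28, adjusted p = 5.63e-05). AT2G40205, which is on the list of genes for proteins of the large ribosomal subunit, had 6.92, 7.32 and 7.64 against 9.40, 9.32 and 9.55 (difference −2.13, SE 0.28, adjusted p = 0.000107). The SD of its monosomal arrays was 0.12, and the groups did not overlap. The remaining 7 of the 10 largest lower calls were AT3G02190 (−2.22), AT4G24030 (−2.17), AT4G24026 (−2.10), AT3G27030 (−2.02), AT3G01940 (−2.01), AT3G11600 (−1.95) and AT5G41560 (−1.89).

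All 20 of these genes were called in each fit that left out 1 of the 6 arrays, and after quantile normalization and loess. The call without polysomal replicate 3 was fixed in advance by the rule that chose these genes. That rule also required no overlap and took the largest differences, so the other fits are a description and no independent support. Under all alternatives tried, 9 of the 10 higher and 10 of the 10 lower genes were called wherever they were tested, with SAP130b as the exception named above.

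**Figure D3:**
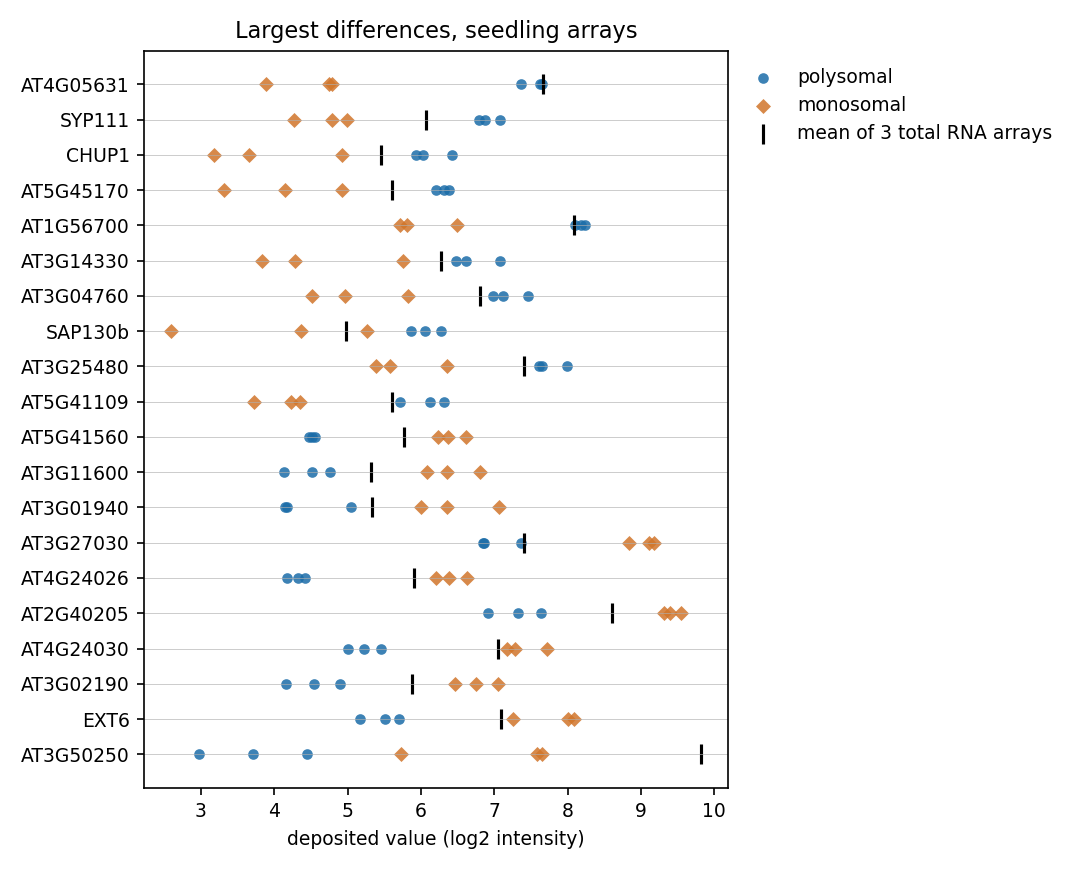
Deposited log2 intensity of the 10 largest calls in each direction among protein-coding genes, on 3 polysomal (blue circles) and 3 monosomal (orange diamonds) seedling arrays, with the mean of 3 total RNA arrays as a black tick. Polysomal and monosomal values do not overlap in any of the 20 genes, since the rule that chose them required this.

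Many genes for structural glycoproteins of the cell wall were called lower on polysomes, where 8.17% of all genes were. These families were picked out after their values had been seen, so their counts are a description. Extensins form a network of hydroxyproline-rich protein in the wall, and 5 of 6 were called lower, with a median difference of −1.51. EXT13 (AT5G35190) had 2.45, 2.46 and 2.70 against 4.93, 5.73 and 4.73, a difference of −2.59 (SE 0.34, adjusted p = 0.00011). EXT10, EXT12 and EXT4 were lower by −1.57, −1.44 and −1.17. EXT3, needed to place the cell plate in the embryo, had 9.01, 9.0 and 8.93 against 9.54, 9.39 and 9.43 and was not called (difference −0.47, adjusted p = 0.315). In all 6 extensin genes the polysomal values lay wholly below the monosomal ones, against 18.6% of all genes. Of the extensins, 5 were called after quantile normalization, after loess and in every fit with 1 array left out.

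Arabinogalactan proteins (AGPs) are heavily glycosylated proteins of the cell surface. Of 30 AGP genes, 17 were lower and 0 higher, the median difference was −0.74, and 28 lay below 0. AGP13 had 6.61, 6.23 and 6.89 against 8.53, 8.04 and 8.26 (difference −1.70, SE 0.31, adjusted p = 0.00112). AGP15, among the most abundant, had 10.67, 10.49 and 10.36 against 11.59, 11.49 and 11.36 (difference −0.97, SE 0.16, adjusted p = 0.000421). Neither gene's groups overlapped. AGP31 had a difference of 0.04 (adjusted p = 0.944), and AGP17 of 0.25 (adjusted p = 0.529). With single arrays left out 14 to 18 AGP genes were lower, and 16 after loess and 12 after quantile normalization.

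Fasciclin-like AGPs (FLA), which join adhesion domains to AGP regions, had 8 of 19 genes lower (42.1%, against 8.17% of all genes) and 0 higher, with a median of −0.56. This count fell to 4 or 5 in the fits with any 1 array left out, and was 7 after loess and 6 after quantile normalization. FLA6 had 2.58, 2.75 and 3.03 against 3.81, 4.46 and 4.43 (difference −1.45, adjusted p = 0.00053), with no overlap.

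A list of metallothioneins, lipid transfer proteins and GASA peptides covers short proteins rich in cysteine. Of its 27 genes 7 were lower (25.9%, against 8.17% of all genes) and 0 higher, with a median of −0.58. The count was 3 without polysomal replicate 2 and 9 without polysomal replicate 3, 7 after loess and 5 after quantile normalization. Metallothioneins bind metal ions. MT2B had 8.98, 8.52 and 9.07 against 9.98, 9.87 and 9.78 (difference −1.02, SE 0.19, adjusted p = 0.00113), and MT1A had 10.07, 9.76 and 10.01 against 11.06, 11.12 and 10.93 (difference −1.09, SE 0.25, adjusted p = 0.00571). MT2A, at 11.11, 10.84 and 11.10 against 11.65, 11.48 and 11.65, differed by −0.58 (adjusted p = 0.016), and its call was lost without polysomal replicate 2 (adjusted p = 0.0743). In all 3 genes the polysomal values lay wholly below the monosomal ones, which was so in 18.6% of all genes.

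Ribosomal protein genes were called lower on polysomes more often than the 8.17% of all genes. Of 86 genes for the small subunit, 30 were lower and 1 higher (34.9% lower), and of 126 for the large subunit, 31 were lower and 3 higher (24.6%). Medians were −0.36 and −0.33, while all genes with a mean level from 7 to 8 over the 18 arrays, the class that holds the median levels of these lists (7.69 and 7.6), had a median of 0.19. AT3G11120 on the large subunit list had 8.85, 8.29 and 8.91 against 10.21, 10.22 and 10.44 (difference −1.61, SE 0.20, adjusted p = 6.32e-05). RS27A (AT3G61110), a small subunit protein gene, had 7.4, 7.19 and 7.45 against 8.57, 8.62 and 8.80 (difference −1.32, SE 0.20, adjusted p = 0.000322). RPS28 had 8.17, 8.33 and 8.42 against 9.28, 9.36 and 9.38 (difference −1.03, adjusted p = 0.000456). In these genes the polysomal values lay wholly below the monosomal ones, which was so in 18.6% of all genes.

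Other ribosomal protein genes were higher on polysomes or not called. SAG24 (AT1G66580), on the large subunit list, had 10.10, 9.77 and 10.08 against 9.37, 9.05 and 9.26 and was higher on polysomes (difference 0.76, SE 0.18, adjusted p = 0.00715). RPS6, whose protein is phosphorylated in the small subunit, was not called, with 10.02, 10.09 and 10.09 against 9.84, 9.91 and 9.88 (difference 0.19, adjusted p = 0.448). With single arrays left out, 18 to 26 genes of the small subunit list were lower, with 18 without monosomal replicate 3 and 19 without polysomal replicate 2. On the large subunit list 20 to 31 were lower, with 20 without polysomal replicate 2. After loess 34 and 42 were lower, and after quantile normalization 29 and 33.

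A few nuclear genes of mitochondrial complexes were lower on polysomes, where 8.17% of all genes were called lower. Cytochrome c oxidase is the last complex of the respiratory chain, and 4 of its 11 nuclear-encoded genes were lower and 0 higher, with 2 lower without monosomal replicate 3 and 4 after either scaling. Over the list 6 differences lay below 0 and 5 above. AT3G62400 on this list had 7.74, 7.84 and 7.87 against 8.80, 8.78 and 8.79 (difference −0.97, SE 0.19, adjusted p = 0.00195), and the fractions did not overlap. The translocase of the outer mitochondrial membrane (TOM) imports proteins. Of 10 TOM genes, a family chosen after values were seen, 3 were lower, TOM6, TOM5 and TOM22-V, and 0 higher, with 3 lower in each fit with 1 array left out and after both other scalings. TOM6, a small accessory subunit, had 6.24, 6.57 and 6.74 against 7.91, 7.76 and 8.24 (difference −1.45, SE 0.20, adjusted p = 0.000137). TOM40, the channel itself, had 7.82, 7.94 and 7.42 against 7.51, 7.32 and 7.75, with a difference of 0.20 that was not called (adjusted p = 0.493).

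Histone genes were split. Of 31, 7 were lower (22.6%) and 2 higher (6.45%), against 8.17% and 10.9% of all genes, with a median of −0.17. After loess or quantile normalization 8 were lower. AT1G07820, on this list, had 6.99, 6.99 and 7.27 against 8.49, 8.29 and 8.02 (difference −1.19, SE 0.23, adjusted p = 0.00167). The H2A genes HTA12 and HTA2 differed by −1.08 and −0.97. HTB11, an H2B gene, was higher on polysomes, at 7.30, 6.83 and 7.38 against 6.49, 6.46 and 6.30 (difference 0.75, SE 0.19, adjusted p = 0.0104), with an adjusted p of 0.0582 without both arrays that carried more seed transcripts. HIS4, a histone H4 gene, had 10.20, 9.87 and 10.50 against 9.14, 9.36 and 9.59. Its groups did not overlap, but its call (difference 0.83, adjusted p = 0.0282) was lost without polysomal replicate 1 (adjusted p = 0.0694) or 3 (adjusted p = 0.111), and without monosomal replicate 1 (adjusted p = 0.0876) or 2 (adjusted p = 0.057).

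Genes of the cytoskeleton, the plastid and membrane traffic were among those higher on polysomes, where 10.9% of all genes were called higher. Kinesins are motor proteins that walk along microtubules. Of 23 genes with kinesin names, again picked out after values were seen, 17 were higher and 0 lower, with a median difference of 0.93. In 20 the polysomal values lay wholly above the monosomal ones, against 16.5% of all genes. The list was matched by gene names, and its higher calls include the light chain-related genes KLCR1, KLCR2 and KLCR3, and KAC1. It is thus not a set of microtubule motors alone. HIK (AT1G18370), the HINKEL kinesin that drives the expansion of the cell plate, had 5.97, 5.91 and 5.98 against 4.16, 3.29 and 3.55 (difference 2.29, 4.88-fold, SE 0.24, adjusted p = 1.78e-05). POK2, which guides the cell plate to its place at the cortex, had 3.73, 4.42 and 4.25 against 2.68, 2.52 and 2.45 (difference 1.58, SE 0.26, adjusted p = 0.000528). TES, a cytokinesis kinesin related to HIK, had 5.18, 4.40 and 5.07 against 3.43, 3.97 and 3.57 (difference 1.23, SE 0.28, adjusted p = 0.00486). All 3 cytokinesis genes, like SYP111, were apart between fractions. With single arrays left out 11 to 16 kinesin genes were higher, with 11 without polysomal replicate 2, and after loess and quantile normalization 13 and 11.

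Other families of this kind were likewise chosen after values were seen. Their shares of higher calls are to be set against the 10.9% of all genes. The augmin complex starts new microtubules on existing ones, and 4 of its 7 genes were higher, with a median of 0.73. This did not hold across fits, since 0 were called without polysomal replicate 2, 1 without polysomal replicate 1 or monosomal replicate 1 or 3, 0 after loess and 1 after quantile normalization. Proteins of the plastid transcriptionally active chromosome (pTAC) work with the plastid's RNA polymerase, and 8 of 14 were higher (median 0.65). PTAC2 had 5.84, 5.93 and 5.52 against 4.62, 3.76 and 4.04 (difference 1.63, SE 0.25, adjusted p = 0.000305), and PTAC12 had 5.97, 6.09 and 6.25 against 4.96, 4.95 and 4.52 (difference 1.29, SE 0.21, adjusted p = 0.000528). The count was 5 without polysomal replicate 1 or 2 or monosomal replicate 3, and 5 after either scaling.

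FtsH proteases degrade damaged membrane proteins in chloroplasts and mitochondria, and 4 of 10 were higher (40%, against 10.9% of all genes), with a median of 0.61. There were 3 to 5 when single arrays were left out and 3 after either scaling. FTSH11 had 6.76, 6.62 and 6.44 against 5.59, 5.51 and 5.52 (difference 1.06, SE 0.18, adjusted p = 0.000597). VPS proteins sort cargo between endosomes and the vacuole, and 13 of 29 were higher (44.8%) and 0 lower (median 0.61). Only 6 were called without polysomal replicate 1, 7 without polysomal replicate 2 or 3, 3 after loess and 4 after quantile normalization. VPS35C, a retromer subunit, had 6.69, 6.67 and 6.43 against 5.57, 5.56 and 6.01 (difference 0.88, SE 0.17, adjusted p = 0.00165).

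Proteasome genes code for the main cytosolic protease, whose core is a cylinder capped by regulatory particles. Of 23 core genes 4 were higher (17.4%, against 10.9% of all genes) and 0 lower (median 0.20). Only 2 were higher without polysomal replicate 3 or monosomal replicate 2, and after either scaling 3 were higher and 1 lower. PAA1, an alpha subunit, had 7.90, 7.96 and 8.01 against 6.72, 6.86 and 6.93 (difference 1.12, SE 0.16, adjusted p = 0.000189), which is a clear gap. In the regulatory particle, a family chosen after values were seen, 5 of 14 were higher (median 0.48), with 3 without polysomal replicate 1 or monosomal replicate 2 or 3, 3 after loess and 4 after quantile normalization. RPT2b, an ATPase that unfolds substrates, had 6.50, 6.34 and 5.98 against 5.16, 4.70 and 5.50 (difference 1.15, SE 0.23, adjusted p = 0.00205).

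Of 38 translation factor genes 8 were higher and 2 lower (21.1% and 5.26%, against 10.9% and 8.17% of all genes), with a median of 0.20. AT1G76810, on this list, had 6.35, 6.28 and 6.53 against 4.76, 4.57 and 4.43 (difference 1.80, SE 0.26, adjusted p = 0.000186). EIF2 ALPHA, a subunit of the factor that brings initiator tRNA, had 5.55, 5.92 and 5.62 against 4.93, 3.87 and 4.52 (difference 1.26, SE 0.23, adjusted p = 0.00114). EIF3C, of the scaffold factor eIF3, had 7.4, 7.86 and 7.63 against 6.62, 6.84 and 6.60 (difference 0.94, SE 0.18, adjusted p = 0.00148). In these 3 genes every polysomal value exceeded every monosomal value, which was so in 16.5% of all genes. The lower genes were ELF5A-1 (difference −1.04, lost without polysomal replicate 1, adjusted p = 0.0713, or monosomal replicate 1, adjusted p = 0.0697) and AT4G27130, at 9.46, 9.41 and 9.38 against 10.25, 10.26 and 9.95 (difference −0.74, adjusted p = 0.00336). The list kept 6 to 9 higher calls with single arrays left out, 6 after loess and 7 after quantile normalization.

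**Figure D4:**
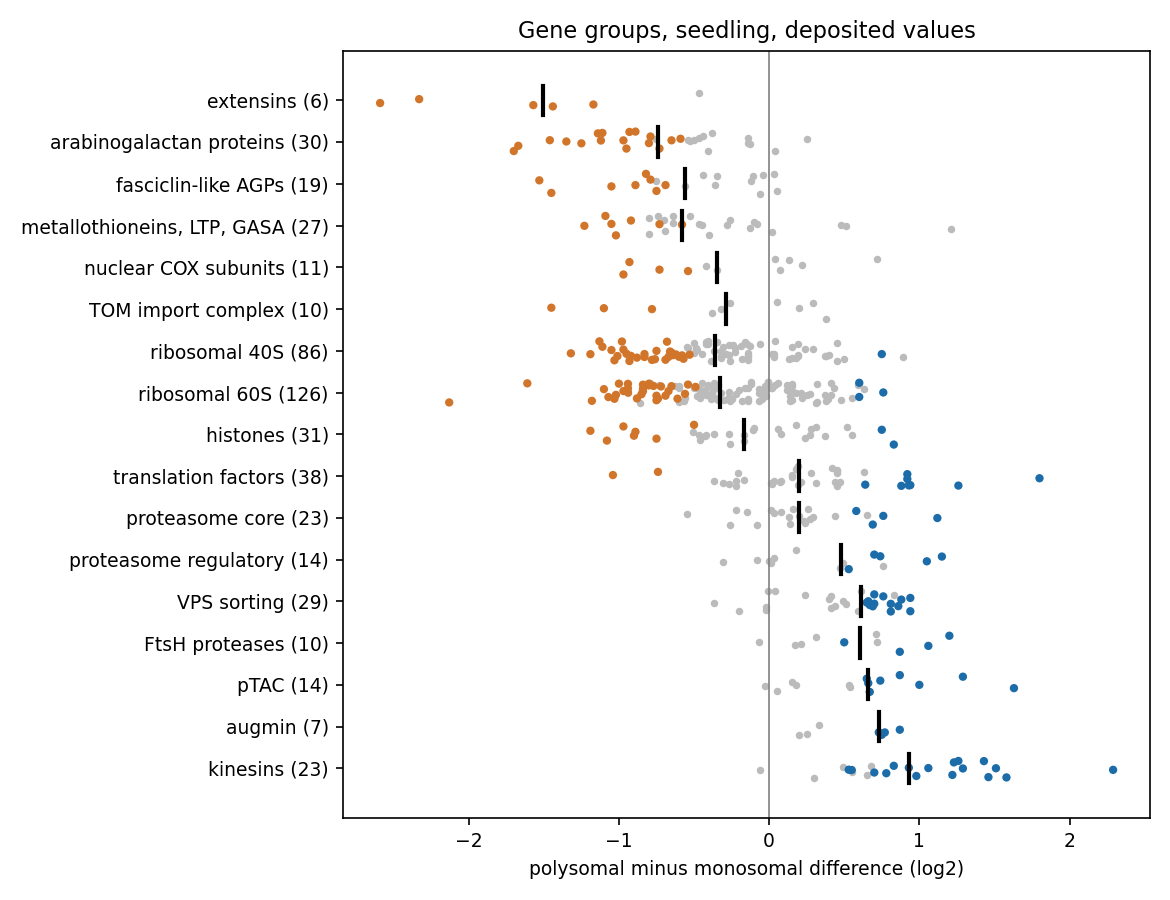
Polysomal minus monosomal difference (log2) of each member of 17 gene groups in seedlings, with the number of members. Blue points were called higher and orange points lower at an adjusted p under 0.05, grey points were not called, and black bars are medians, from −1.51 for extensins to 0.93 for kinesins.

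Photosynthesis genes, which are among the most abundant transcripts of a green seedling, gave calls at varying shares. Of 21 photosystem core genes 0 were called in either direction by limma (median −0.01), with 1 lower at an unadjusted p under 0.05, and of 18 light-harvesting genes 2 were called higher (11.1%, against 10.9% of all genes), or 0 after loess. LHCA2, an antenna protein of photosystem I, had 11.08, 11.18 and 11.22 against 10.62, 10.51 and 10.55 (difference 0.60, adjusted p = 0.0363). Its values did not overlap, but the adjusted p lay between 0.0552 and 0.0889 whichever array was left out. Of 17 Calvin cycle genes, which fix carbon dioxide, 3 were higher (17.6%) and 1 lower, with 1 higher after loess and 2 after quantile normalization. HCEF1, a fructose-bisphosphatase, was the higher gene called in all fits with single arrays left out, at 8.38, 8.49 and 8.28 against 7.72, 7.90 and 7.55 (difference 0.66, SE 0.16, adjusted p = 0.00674). PGK1 and FBA1 each lost their call without polysomal replicate 2 or 3 or monosomal replicate 2 or 3, and PGK1 also without polysomal replicate 1.

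RBCS3B, a gene for the small subunit of Rubisco, was lower on polysomes at 4.19, 3.63 and 3.69 against 5.14, 5.41 and 4.54 (difference −1.19), and this call was lost without both arrays that carried more seed transcripts (adjusted p = 0.0553). The far more abundant RBCS1A, at 11.98, 11.94 and 12.01 against 12.20, 12.11 and 12.20, was not called (difference −0.19, adjusted p = 0.554). Among genes often used as references, ACT7 differed by 0.35 (adjusted p = 0.152), UBQ10 by −0.34 (adjusted p = 0.251) and AT1G07920 by 0.02 (adjusted p = 0.944).

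Some mRNAs carry a conserved upstream open reading frame, a short peptide frame in the leader that can hold back ribosomes. Of 28 such genes 3 were higher (10.7%, near the 10.9% of all genes) and 0 lower (median −0.01). After loess 2 were higher and 3 lower, and after quantile normalization 3 and 1. In this list 16 of the 28 rows were identical to another row, so that the locus measured is uncertain. AT1G29950 had a difference of 0.83 and lost its call without monosomal replicate 3 (adjusted p = 0.055). LHW and PAO3, at 0.80 and 0.87, are among the identical rows. SAMDC, a polyamine synthesis gene with such a frame, had a difference of −0.01 (adjusted p = 0.971). Among 11 plasma membrane proton pumps 0 were called by limma, with 1 higher at an unadjusted p under 0.05, and HA2, a main pump of the plant, differed by −0.16 (SE 0.30, adjusted p = 0.737). Cellulose synthase genes had 2 of 10 lower (20%, against 8.17% of all genes), CESA4 and IRX3, which both make secondary walls. Neither held without polysomal replicate 3 (adjusted p = 0.0552 and 0.0853) or without polysomal replicate 1 (adjusted p = 0.0606 and 0.118). Without monosomal replicate 2 CESA4 was lost (adjusted p = 0.0583), and without monosomal replicate 3 IRX3 (adjusted p = 0.186). Tubulin and actin genes had 1 of 23 higher, TUB7 (difference 0.90, adjusted p = 0.00392), and 1 lower, TUA2, each 4.35% of the list. The call of TUA2 was lost without polysomal replicate 2 (adjusted p = 0.135) or monosomal replicate 1 (adjusted p = 0.1) or 3 (adjusted p = 0.0547). TUA2 had a low mean of 1.84 over the 18 arrays. After loess or quantile normalization 0 tubulin and actin genes were lower and 1 was higher.

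Small RNAs that are not translated were called lower on polysomes more often than higher. How fully the labelling covers RNAs without a poly(A) tail was not tested, and the values reflect only what was labelled. Among the 86 transfer RNA, small nuclear, small nucleolar and microRNA loci with a mean of at least log2 3, 18 were lower and 1 higher (median −0.44), against 1238 lower and 2807 higher of 15560 protein-coding genes at that level (median 0.15). After quantile normalization 19 were lower and 1 higher, and after loess 20 and 0. Below log2 3, 29 of 230 such loci were lower as deposited but 8 after quantile normalization and 10 after loess.

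U12 (AT1G61275), an RNA of the minor spliceosome, had 5.45, 5.05 and 5.74 against 6.39, 6.25 and 6.19 (difference −0.86, SE 0.21, adjusted p = 0.00732), with no overlap. Among 174 microRNA loci 24 were lower (13.8%, against 8.17% of all genes) and 0 higher, with 14 lower without polysomal replicate 2 and 15 without polysomal replicate 1. After quantile normalization 7 were lower and 0 higher, and after loess 9 and 1. Most of these loci lay near the background, and only 18 had a mean of at least log2 3. Of these 18, MIR159a, MIR162a and MIR390a were lower under all 3 scalings. MIR159a, precursor of a microRNA that represses MYB factors of gibberellin signalling, had 3.23, 3.75 and 3.76 against 4.66, 5.11 and 5.62 (difference −1.55, SE 0.27, adjusted p = 0.000758). The call of MIR162a was lost without polysomal replicate 1 (adjusted p = 0.0638). That of MIR390a was lost without polysomal replicate 2 (adjusted p = 0.0841) or 3 (adjusted p = 0.144) and without monosomal replicate 1 (adjusted p = 0.138) or 2 (adjusted p = 0.078).

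Annotated non-coding RNAs were found on both sides. Of 165 loci of the type ncRNA 33 were lower (20%) and 2 higher (1.21%), against 8.17% and 10.9% of all genes. Of 222 lncRNA loci 23 were lower (10.4%, near the share of all genes) and 7 higher (3.15%). The lncRNA loci had 12 lower without polysomal replicate 1 and 15 without polysomal replicate 2. The lower counts were 28 and 23 after loess and 29 and 22 after quantile normalization. AT1G53801, a lncRNA locus, had 6.52, 6.15 and 6.33 against 4.35, 4.70 and 4.16, so that it was higher on polysomes by 1.93 (SE 0.27, adjusted p = 0.00017). The ncRNA locus AT5G07322 had 5.42, 5.29 and 6.42 against 7.47, 7.64 and 7.56 (difference −1.85, SE 0.32, adjusted p = 0.000821), with the polysomal replicate that carried seed transcripts the highest of its group. AT4G38932 and AT1G10682 were lower by −1.82 and −1.76. AT3G13061 and AT5G19221 were higher by 1.32 and 1.14, the latter not in the fit of the 6 arrays alone (adjusted p = 0.0581).

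Organelles translate their own mRNAs on their own ribosomes. Of 92 mitochondria-encoded rows, 37 of them identical to another row, 8 were higher and 7 lower (8.70% and 7.61%, near the 10.9% and 8.17% of all genes, with a median of 0.03). After loess 6 were higher and 10 lower, and after quantile normalization 7 and 7. Calls lower were 1 without polysomal replicate 3, 2 without monosomal replicate 2 and 4 without monosomal replicate 1, and calls higher ranged from 4 without polysomal replicate 2 to 13 without monosomal replicate 2. ATMG00290 had 8.41, 7.88 and 7.75 against 6.63, 6.39 and 6.30 and was higher by 1.57 (SE 0.22, adjusted p = 0.000133). The list medians were 6.72, 6.68 and 6.34 on the polysomal, 6.61, 6.95 and 6.32 on the monosomal and 8.45, 8.36 and 8.10 on the total RNA arrays. Both fractions thus lay below total RNA. Of 15 chloroplast-encoded rows, 12 of them identical to another row, 2 were higher (13.3%) and 1 lower (6.67%), near the shares of all genes. After either scaling 2 were higher and 0 lower. ATCG00170 had 10.13, 9.68 and 9.65 against 8.64, 8.41 and 7.91 (difference 1.5, adjusted p = 0.000389) and is 1 of the identical rows.

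The polysomal to monosomal comparison of dry seeds used separate arrays, so the contrasts at the 2 stages can be set against each other. In dry seeds 3211 genes (11.5%) were higher on polysomes and 2084 (7.49%) lower. Higher at both stages were 920 genes, 30.2% of those of seedlings and 28.7% of those of dry seeds, and lower at both 400, 17.6% and 19.2%. In opposite directions were 181 genes higher in seedlings and lower in dry seeds and 85 the other way. Across genes the correlation of the differences was 0.30. The difference between the contrasts, tested in limma, was called for 1584 genes (5.69%) with a more positive value in seedlings and 1335 (4.80%) with a more negative one. Without both seedling arrays that carried more seed transcripts, 1156 had a more positive and 805 a more negative value. Without polysomal replicate 1 alone the counts were 1212 and 910.

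Ribosomal protein genes were called lower more often than higher at both stages. In dry seeds 29 of the 86 genes of the small subunit list were lower and 1 higher, and 44 of the 126 of the large subunit list were lower and 0 higher, with medians of −0.40 and −0.45. Of all genes 7.49% were lower and 11.5% higher in dry seeds. A more positive value in seedlings was called for 17 of the 126 (8 to 15 with single seedling arrays left out, with 8 without polysomal replicate 3 and 11 without monosomal replicate 2) and for 5 of the 86 (3 to 5), against 5.69% of all genes, and a more negative value for 2 in each list. AT3G11120 differed by −2.0 in dry seeds and −1.61 in seedlings, and the difference between the stages was not called (difference 0.39, SE 0.28, adjusted p = 0.426). TOM5 likewise had −1.07 and −1.10 (difference −0.03, SE 0.27, adjusted p = 0.972). Of the nuclear genes for cytochrome c oxidase 6 of 11 were lower in dry seeds, against 7.49% of all genes, with a median of −0.95. A more positive value in seedlings was called for 3 of the 11, or 1 without polysomal replicate 3, against 5.69% of all genes.

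Some cytokinesis genes differed between the stages. HIK had a difference of −0.39 in dry seeds and 2.29 in seedlings, a gap of 2.68 (SE 0.34, adjusted p = 0.000272), and SYP111 of −0.02 and 2.23, a gap of 2.25 (SE 0.32, adjusted p = 0.00053). SYP111 was lower in dry seeds, with a mean of 3.92 over the 18 arrays and 5.8 over the 6 seedling arrays. Its dry seed difference was thus measured at low values and cannot show how the mRNA was loaded there. POK2 had a gap of 2.08 (SE 0.37, adjusted p = 0.00183), while the gap of TES was not called (0.63, SE 0.39, adjusted p = 0.353). HIK and POK2 are on the kinesin list, where 7 of 23 genes had a mean under log2 3 over the 18 arrays. Whether low values in dry seeds limit the gaps of HIK and POK2 as well was not tested. Of 23 kinesin genes 5 were higher in dry seeds and 5 had a more positive value in seedlings, against 11.5% and 5.69% of all genes. Extensin genes had 1 of 6 lower in dry seeds, against 7.49% of all genes. A more negative value in seedlings was called for 3 of 6, against 4.80% of all genes, among them EXT6 (gap −2.15, SE 0.39, adjusted p = 0.00225). EXT6 was also lower in dry seeds, with a mean of 4.12 over the 18 arrays and 6.62 over the 6 seedling arrays. The same limit as for SYP111 thus applies to its dry seed difference of −0.17. For AGP15 the values were −0.01 and −0.97 (gap −0.96, SE 0.22, adjusted p = 0.00901).

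Histone genes were lower on polysomes in 19 of 31 cases in dry seeds (median −0.74), against 7.49% of all genes. A more positive value in seedlings was called for 8 of the 31, against 5.69% of all genes. HTB11 was at −1.17 in dry seeds and 0.75 in seedlings (gap 1.92, SE 0.27, adjusted p = 0.000458). Of the 92 mitochondria-encoded rows, 37 of them identical to another row, 67 were higher on polysomes in dry seeds (median 1.10). The share of all genes was 11.5%. A more negative value in seedlings was called for 46 of the 92, against 4.80% of all genes. It was called for 36 without polysomal replicate 3 and for 33 without both arrays that carried more seed transcripts. Proton pumps were higher in 5 of 11 cases in dry seeds, against 11.5% of all genes. HA2 was at 1.56 in dry seeds and −0.16 in seedlings (gap −1.72, SE 0.42, adjusted p = 0.0131, and 0.0593 without both arrays that carried more seed transcripts). Of the proteasome core genes 7 of 23 had a more positive value in seedlings, or 4 without polysomal replicate 1, against 5.69% of all genes. Among the 7 was PAA1 (gap 0.98, SE 0.23, adjusted p = 0.01).

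**Figure D5:**
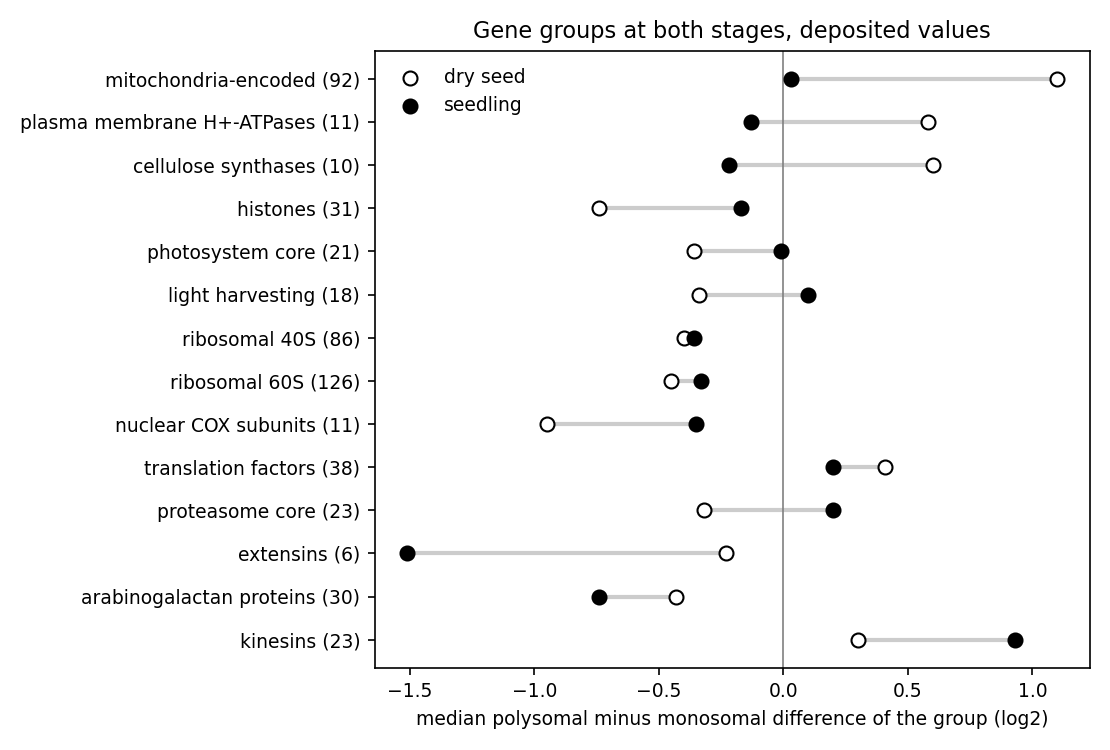
Median polysomal minus monosomal difference (log2) of 14 gene groups in seedlings (filled circles) and dry seeds (open circles), with the number of members. Ribosomal protein medians are −0.36 and −0.33 in seedlings and −0.40 and −0.45 in dry seeds, while the mitochondria-encoded median is 1.10 in dry seeds and 0.03 in seedlings.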

How the data were processed

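RNA was labelled as biotin cRNA and hybridised to arrays, per the labels' protocols. The deposited values are log2 intensities which the authors made with RMA, a robust averaging of probes over arrays, as the submitters' processing notes record. Its version and the grouping of probes are not given in the sources used here. Loci were matched to the RefSeq table of TAIR10.1 (27241 matched, 586 not), which served for names and gene types. No array was dropped or imputed. Another 182 rows repeat the values of another row. One linear model with 6 group means over 18 arrays (12 residual degrees of freedom) was fitted with limma (version 3.58.1, in R 4.3.3), using its moderated statistics and Benjamini-Hochberg adjustment. The script was tested on simulated data. Replicates are biological according to the labels, and the number of arrays limits the precision.

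The members and lists were chosen with earlier results of these data known, and the families named for extensins, AGPs, FLA, TOM, VPS, pTAC, FtsH, kinesins, augmin and the proteasome regulatory particle after values were seen. Named were the 10 largest called differences per direction among protein-coding genes (mean of at least log2 5 over the 6 arrays, called with and without polysomal replicate 3, no overlap, no repeated row), the 3 largest among non-coding genes, up to 3 called members of each list and direction (or, with none, the 2 most abundant), and 8 fixed genes. Genes named beyond this rule (the seed genes of the opening, members of the families chosen later, RPS28, MT2A, U12 and MIR162a among them) were chosen after their values were seen. Same-numbered polysomal and monosomal arrays were not paired, since their deviations from the group means correlated at 0.02, 0.07 and 0.04. Those of differently numbered arrays correlated at −0.04 to 0. The labels do not say whether a replicate number marks a block, and these correlations across genes cannot settle it. Alternatives were other scalings, an intensity filter, a trended robust prior, array weights, a replicate block, a fit of the compared arrays alone, each array left out, a stricter threshold and a required fold. Quantile normalization and leaving out both arrays with more seed transcripts were added after seeing the data.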

Additional observations from a re-analysis of the deposited data

Results flagged for a closer look

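For 43 of the named genes the polysomal to monosomal difference of seedlings and that of dry seeds, measured on separate arrays, passed the test of their difference in limma. Values are the seedling difference minus the dry seed difference on the log2 scale, each with an adjusted p under 0.05. Some of these genes were lower in dry seeds, and a difference measured at low values cannot show loading there. Means over the 18 arrays and over the 6 seedling arrays were 3.75 and 5.02 for CHUP1. They were 3.92 and 5.8 for SYP111, and 4.12 and 6.62 for EXT6. For PAO3 they were 2.99 and 4.46, for AT3G01940 3.85 and 5.47, for AT1G10682 4.24 and 6.26, and for AT5G07322 4.51 and 6.63. These genes are examples, and the limit was not tested for each of the 43. With 1 seedling array left out at a time, 31 of the 43 were called in every fit. The other 12 lost their call in at least 1 fit, and 9 of them without polysomal replicate 3: MT1A (1.23, adjusted p = 0.0598), SAG24 (0.80, 0.0834), HA1 (−0.86, 0.0813), SAMDC (−0.88, 0.0626), PGK1 (1.02, 0.0663), LHCA2 (0.97, 0.0544), AT4G10450 (0.91, 0.054), AT5G41560 (−0.84, 0.062) and ATMG00350 (−0.92, 0.0857). AT5G07322 (largest adjusted p 0.1), ATMG00950 (0.0885) and PAO3 (0.0855) lost it without other arrays.

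The seedling value was the more negative for AT3G50250 (−3.98), EXT6 (−2.15), AT3G01940 (−1.87), AT4G24030 (−1.80), AT3G11600 (−1.57), AT4G24026 (−1.54), AT3G02190 (−1.32) and AT5G41560 (−0.84), all among the largest lower calls of seedlings. It was also the more negative for the non-coding loci AT5G07322 (−1.50) and AT1G10682 (−1.30), the mitochondria-encoded rows ATMG01340 (−1.99), ATMG00350 (−1.34) and ATMG00950 (−1.30), the proton pumps HA2 (−1.72) and HA1 (−0.98), the polyamine gene SAMDC (−0.90) and the translation factor gene AT4G27130 (−0.86). ATMG01340 and ATMG00350 are, like PAO3 below, identical to another row, so the locus measured is uncertain.

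It was the more positive for CHUP1 (2.87), AT3G25480 (2.70), SYP111 (2.25), AT1G56700 (2.04), AT4G05631 (1.95), AT5G45170 (1.79) and AT3G04760 (1.58), all among the largest higher calls, and for the non-coding loci AT1G53801 (2.45) and AT3G13061 (1.95). Histone genes HIS4 (2.27) and HTB11 (1.92), metallothioneins MT1C (1.85) and MT1A (1.26), proteasome genes PAF2 (1.34), PAE1 (1.13) and PAA1 (0.98) and the mitochondria-encoded ATMG00290 (1.46) also had the more positive value in seedlings. So did the photosynthesis genes PSBR (1.32), PSBW (1.17), PGK1 (1.02), LHCA2 (1.0) and HCEF1 (0.95), the ribosomal protein genes RPL23AB (1.20), AT4G10450 (0.95) and SAG24 (0.85), and PAO3 (1.16), a gene with a conserved upstream frame.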

How the results depend on the processing

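Array number and the deposited scaling limit these results. The count of genes higher on polysomes was 1907 with arrays centred on their 75th percentile, 1432 with only the compared arrays fitted, 1510 at an adjusted p under 0.01, 1195 with 2-fold required and 2130 to 2858 with single arrays left out. For genes lower it was 5289, 867, 805, 685 and 1365 to 2111 in the same order (1365 without polysomal replicate 1 and 1422 without replicate 2), 1329 without genes of a mean under log2 4 and 1504 with array weights. The stage difference gave 631 more positive and 423 more negative values at an adjusted p under 0.01. It gave 1190 to 1488 and 907 to 1371 with single arrays left out, and 1156 and 805 without both arrays with more seed transcripts. A replicate block gave 2998 higher and 2199 lower genes, and 1500 and 1222 for the stage difference. Of the gene results, 5 lost their call under the block, 38 with only the compared arrays fitted, 26 without polysomal replicate 3, 32 without both arrays, 16 after loess and 12 after quantile normalization.

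Differences that changed sign were of genes not called with all arrays. AT1G07920 was at −0.04 after median centring, −0.19 after centring on the 75th percentile, −0.15 after loess, −0.08 after quantile normalization and −0.06 without both arrays. After quantile normalization RBCS1A and PSBR were at 0.06 and PSBW at 0.01. Centring on the 75th percentile put HA1 at −0.10 and RPS6 at −0.02. SAMDC was at 0.12 and HA2 at 0.01 without both arrays. With single arrays left out, AT1G07920 ran from −0.04 to 0.07, PSBR from −0.18 to 0.04, HA1 from 0 to 0.23, SAMDC from −0.16 to 0.10, CRU3 from −1.45 to 0.53 and CRA1 from −1.68 to 0.28. The cause of these changes was not tested.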
